A study of Mus musculus with 6 samples.

Results

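The 38 genes described here encode enzymes and helper proteins that work inside the lysosome, most of them glycosidases, sulfatases and lipid hydrolases. They were taken by gene symbol, without regard to their values, although the list was drawn up around *Arsb*, which was already known to be higher in these data. The question was whether that rise was shared by the other lysosomal enzymes. All 38 were among the 19225 genes listed, and 33 of them were among the 6659 genes that were tested, those whose mean over the 6 libraries reached 10 CPM (reads of a gene scaled to a common library size).

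Microglia, the resident phagocytes of the brain, were enriched with magnetic beads against the surface protein CD11b from unstressed male mice, and the 3′ ends of their mRNAs were sequenced, with 1 library from each animal. The 3 mice labelled *Cnr1*-/- carried the Cnr1 tm1Zim allele on both chromosomes (genotype d/d), a constitutive disruption of the cannabinoid receptor CB1 that is not limited to microglia. The 3 mice labelled *Cnr1*+/+ were wt/wt with the strain given as C57BL6/J, which per the study's methods is also the background of the mutant line, and all 6 were given as 3 months old, while the study's methods give a somewhat younger range in weeks. *Cnr1* itself was at 0 in each library labelled *Cnr1*+/+ and at 1.41, 1.21 and 1.79 CPM in those labelled *Cnr1*-/-, which goes against the labels. The table does not say where in the gene these reads lie, and reads of a 3′ end need not fall in the disrupted sequence, so they do not check the deletion. All directions below are those of the labels.

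The 14 microglia markers summed to 17179 to 19880 CPM in every library. The library labelled *Cnr1*-/- replicate 2 stood apart in blood cell markers, with 4118 CPM of neutrophil markers against 270.2 to 532 CPM in the other 5, 2342 CPM of erythrocyte markers against 136 to 237 CPM, and 112 CPM of monocyte markers against 28.2 to 34.6 CPM. The part of these cells in the values below was not tested, and the level of *Arsb*, its share and ratio, and the main counts over the whole list are given with and without that library. In such bulk samples, fewer cells of a type and less RNA per cell cannot be told apart.

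Lysosomes degrade what a cell takes up, and microglia, which clear debris, lipids and matrix from the brain, depend on them. Sulfatases remove sulfate groups from glycosaminoglycans (the long sugar chains of the extracellular matrix) and from sulfated lipids, exoglycosidases take off the sugars from the chain ends, and lipid hydrolases break down sphingolipids, cholesteryl esters and phospholipids. Loss of a single one of these enzymes can lead to a lysosomal storage disease. Many of their genes are known to be switched on together by the transcription factor TFEB, which binds a motif built around the letters CACGTG.

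*Arsb* was the one gene of the list that rose strongly. It encodes arylsulfatase B, which removes sulfate from dermatan sulfate and chondroitin sulfate, and it lies on chromosome 13 of mm10 from 93771630 to 93943016 on the plus strand. The GENCODE vM21 annotation gives it 2 transcripts, of which 1 is protein coding with 8 exons, and they have 2 distinct 3′ ends that the values do not separate. In the libraries labelled *Cnr1*+/+ its level was 34.0, 44.5 and 45.4 CPM (262, 446 and 432 reads), and in those labelled *Cnr1*-/- it was 144, 63.0 and 112 CPM (1333, 676 and 943 reads). The groups did not overlap, and even the lowest library labelled *Cnr1*-/-, replicate 2, was 1.39 times the highest labelled *Cnr1*+/+.

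The means of *Arsb* were 107 ± 41.0 CPM (SD, n = 3) for the label *Cnr1*-/- and 41.3 ± 6.36 CPM (SD, n = 3) for *Cnr1*+/+. The log2 fold change on the scale of log2 (CPM + 0.1) was 1.30 with a standard error of 0.20 and a 95% interval of 0.88 to 1.71, a fold of 2.46 (limma, adjusted p = 0.00442 over all genes tested). Its nominal p of 6.64e-07 (limma) was the lowest of the 6659 genes, and its log2 fold change ranked 12. A two-sided exact permutation test gave p = 0.1, the smallest that 3 libraries against 3 allow. When the library labelled *Cnr1*-/- replicate 2 was left out, the log2 fold change was 1.63 (limma adjusted p = 4.06e-09). The adjusted call was lost, with the fold still above 1.5, when the libraries were scaled in 3 other ways (limma adjusted p = 0.140 to 0.214, log2 fold change 1.20 to 1.22), and when the mean-variance trend was left out (limma adjusted p = 0.825, log2 fold change 1.30).

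The level of *Arsb* also varied within the label *Cnr1*-/-, chiefly through replicate 2, which was the lowest. Its coefficient of variation was 38.4% among these 3 libraries, 17.5% between replicates 1 and 3 alone, and 15.4% among the libraries labelled *Cnr1*+/+. The mean of replicates 1 and 3 alone was 128 CPM, or 3.11 times that of the label *Cnr1*+/+. For the other 32 tested genes the coefficient of variation was 2.74% to 30.3%, with a median of 7.99%, among all 3 libraries labelled *Cnr1*-/-. Among those labelled *Cnr1*+/+ it was 1.41% to 25.1%, with a median of 11.8%. *Arsb* had the highest of the 33 tested genes among all 3 libraries labelled *Cnr1*-/-, and ranked 4 between replicates 1 and 3 alone.

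**Figure D1:**
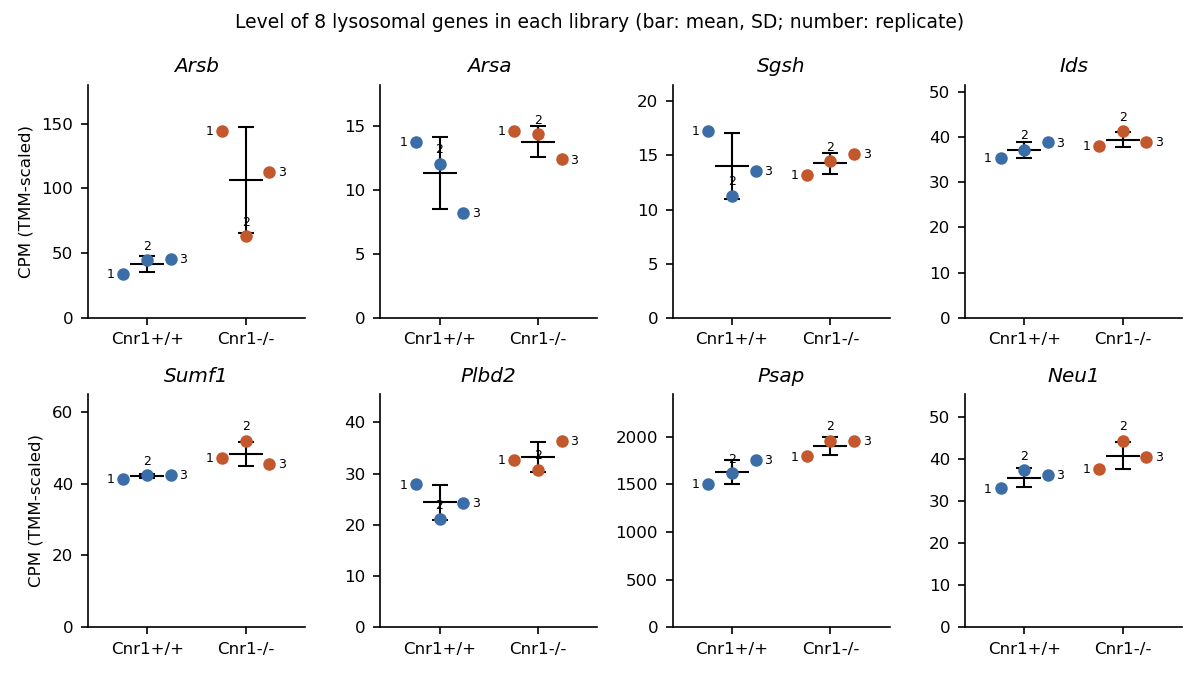
Level of 8 lysosomal genes in each library (y axis, CPM with TMM scaling, from 0; x axis, genotype label), with points numbered by replicate and bars for the mean ± SD of 3 libraries. *Arsb* lies at 63.0 to 144 CPM in the libraries labelled *Cnr1*-/- and at 34.0 to 45.4 CPM in the others, whereas *Arsa*, *Sgsh* and *Ids* overlap between the labels.

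A ratio within a library does not depend on how libraries are scaled to each other, and the difference in *Arsb* remained in it. The other 37 genes summed to 5056, 5258 and 5915 CPM in the libraries labelled *Cnr1*+/+ and to 5578, 6058 and 5863 CPM in those labelled *Cnr1*-/-, so that the 2 groups overlapped. *Arsb* made up 0.668%, 0.839% and 0.762% of the sum of all 38 in the former and 2.52%, 1.03% and 1.88% in the latter, with no overlap. On the log2 scale, the mean ratio of *Arsb* to the sum of the others was higher by 1.19 in the libraries labelled *Cnr1*-/-. Leaving out replicate 2 of that label made this difference 1.55, and the mean share of *Arsb* was then 2.20% against 0.756%.

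**Figure D2:**
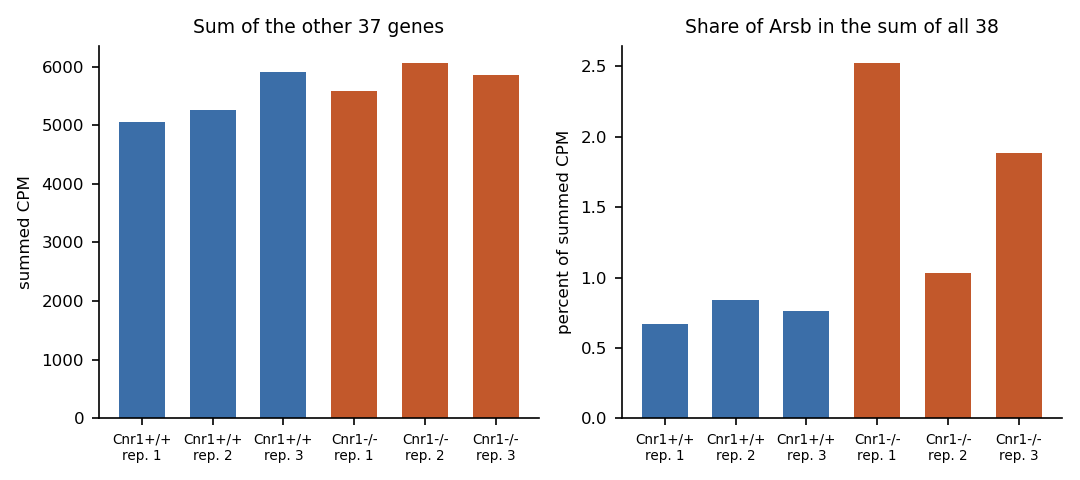
Summed level of the other 37 genes (left, CPM) and share of *Arsb* in the sum of all 38 (right, percent) in each library, drawn as bars from 0 in blue for the label *Cnr1*+/+ and orange for *Cnr1*-/-. The sums overlap at 5056 to 5915 and 5578 to 6058 CPM, whereas the share of *Arsb* is 0.668% to 0.839% in the former and 1.03% to 2.52% in the latter.

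Across the 33 tested genes, the rise of *Arsb* was not matched by a common shift. A nominal p under 0.05 (limma) was reached by 2 genes that were higher, *Arsb* and *Plbd2*, and by 0 genes that were lower. The list was drawn up around *Arsb*, so its own pass was fixed in advance and is a description. Among the other 32 tested genes, 1 was higher, where the share over all genes tested was 5.09%, and 0 were lower, where that share was 0.931%. In either direction 6.02% of all genes tested passed. The stricter call, a fold over 1.5 whose adjusted p was also under 0.1, was reached by 0 of these 32 genes (limma) and by 0.0901% of all genes tested. Of the 32, 23 had a log2 fold change above 0 and 9 below it, where 68.4% of all genes tested lay above 0. The median log2 fold change was 0.07, and 0.06 without *Arsb*, beside 0.08 over all 6659 genes, and 15 of the 32 genes other than *Arsb* lay above the median of all genes. When replicate 2 labelled *Cnr1*-/- was left out, *Arsb* and *Plbd2* were again the 2 genes that were higher, *Lipa* was lower, and the median was 0.03, beside 0.04 over all genes, of which 2.61% were higher and 1.20% lower. Of the 32 genes other than *Arsb*, 0 then reached the stricter call (0.0911% of all genes tested), and 19 had a log2 fold change above 0 (57.9% of all genes tested).

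The intervals of the other genes give an upper limit to the change of each. Leaving out *Arsb*, the log2 fold changes ran from −0.35 to 0.45, or folds of 0.784 to 1.37. The 95% interval lay wholly between 1.5-fold lower and 1.5-fold higher for 27 of these 32 genes (56.4% of all genes tested), and its upper end was below 1.5-fold higher for 29 (69.4% of all genes tested). For 31 of the 32 other genes the interval ended below 0.88, where that of *Arsb* began, and so did those of 93.5% of all genes tested. The exception was *Galc*, whose interval reached 0.94. When replicate 2 labelled *Cnr1*-/- was left out, the interval lay within 1.5-fold in either direction for 24 of the 32 genes other than *Arsb* (45.5% of all genes tested) and ended below 1.5-fold higher for 27 (66.6%). That of *Arsb* began at 1.28, above the end of all 32 others (99.3% of all genes tested).

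**Figure D3:**
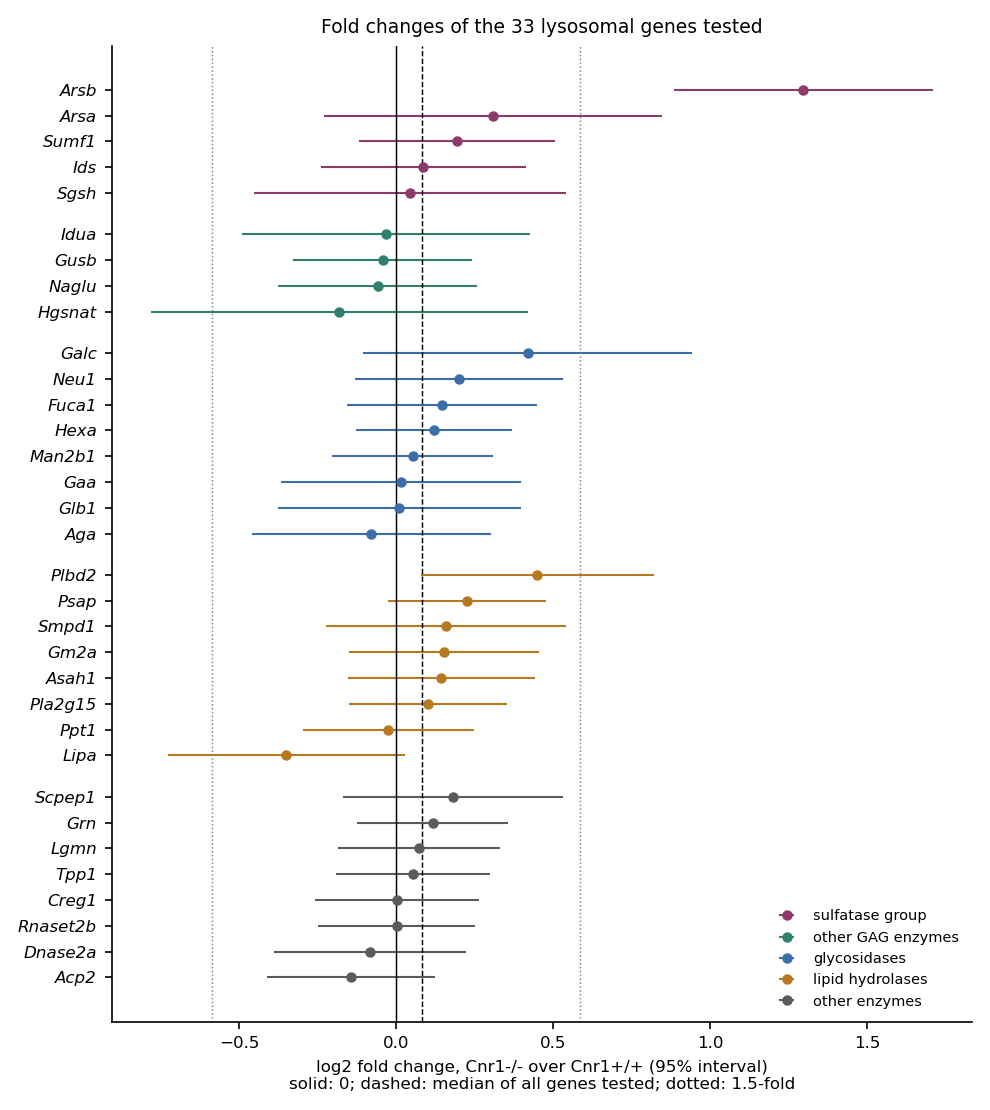
Log2 fold change of the 33 tested genes (x axis, libraries labelled *Cnr1*-/- over *Cnr1*+/+, points with 95% intervals), by functional group, with a dashed line at the median of all genes tested (0.08) and dotted lines at 1.5-fold. *Arsb* stands at 1.30, and the other genes lie between −0.35 and 0.45.

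The groups of the 2 labels did not overlap for 5 of the 33 genes, *Arsb*, *Plbd2*, *Psap*, *Sumf1* and *Neu1*, all of them higher in the libraries labelled *Cnr1*-/-. Without *Arsb*, whose rise was known in advance, these were 4 of 32, where 8.85% of all genes tested were higher without overlap. No gene of the list was lower without overlap (0 of 32 without *Arsb*, against 2.13% of all genes tested), and 28 of the 33 overlapped. With replicate 2 labelled *Cnr1*-/- left out, 5 of the 32 genes other than *Arsb* were higher without overlap and 2 lower. Of all genes tested, 11.1% and 6.44% then were.

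The list falls into 5 groups by function, each with 4 to 8 tested genes, too few to set their counts against the shares over all genes tested (5.09% higher, 0.931% lower). Values without replicate 2 labelled *Cnr1*-/- are given for a group where its count or median moved by over 1.5 times. In the group of the sulfatases and their activating enzyme, 5 of 7 genes were tested, 1 rose (*Arsb*) and 0 fell, and the median log2 fold change was 0.19, or 0.14 without *Arsb*. *Arsa*, arylsulfatase A, which acts on sulfatides of myelin, stood at 13.8, 12.1 and 8.20 CPM in the libraries labelled *Cnr1*+/+ and 14.6, 14.4 and 12.4 CPM in those labelled *Cnr1*-/-. The values overlapped, with a log2 fold change of 0.31 (95% interval −0.23 to 0.85, limma adjusted p = 0.900). It was 0.094 without the library labelled *Cnr1*+/+ replicate 3, the lowest for this gene, and 0.46 without *Cnr1*+/+ replicate 1. *Sgsh* removes sulfate from glucosamine in heparan sulfate. Its level was 17.3, 11.3 and 13.6 CPM against 13.2, 14.5 and 15.1 CPM, a log2 fold change of 0.04 (95% interval −0.45 to 0.54), whose sign turned to −0.03, −0.03 and −0.06 under the 3 other scalings. *Ids*, the iduronate sulfatase of dermatan and heparan sulfate, had 35.4, 37.2 and 38.8 CPM against 38.0, 41.3 and 39.0 CPM, a log2 fold change of 0.09 (95% interval −0.24 to 0.41) that was −0.01 after rescaling without mitochondrially encoded genes. Its values were close to each other in all 6 libraries.

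The other 2 sulfatases were too low to be tested. *Arsg*, which acts on heparan sulfate, stood at 11.03, 9.98 and 8.94 CPM in the libraries labelled *Cnr1*+/+ and 6.06, 10.1 and 13.6 CPM in those labelled *Cnr1*-/-, a mean of 9.95 CPM just under the minimum. *Galns*, which acts on keratan and chondroitin sulfate, had 3.11, 7.28 and 5.15 CPM against 8.23, 6.71 and 6.20 CPM. Both overlapped between the labels. *Sumf1* encodes the enzyme that makes the formylglycine residue which every sulfatase needs in its active site. It stood at 41.4, 42.3 and 42.5 CPM in the libraries labelled *Cnr1*+/+ and 47.2, 51.8 and 45.4 CPM in those labelled *Cnr1*-/-, with no overlap. Its log2 fold change of 0.19 did not pass the test (95% interval −0.12 to 0.51, limma adjusted p = 0.900).

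The 250 bases before the RefSeq start of a gene (GRCm38.p6) were searched for CACGTG, the core of the TFEB motif, and for TCACGTGA, which contains it. Both read the same on the 2 strands. Windows were found for 33 of the 38 genes. CACGTG was present for 8 genes, *Arsa*, *Gaa*, *Gla*, *Glb1*, *Lgmn*, *Naglu*, *Sgsh* and *Sumf1*, or 21.1% of their 38 windows, where 6.02% of all 32851 windows of that length held it. TCACGTGA was present for 2 genes, *Gla* and *Sumf1*, where 0.785% of all windows held it. The window of *Arsb* had neither. These shares count whole windows before the RefSeq start, also where the annotation of the values begins the gene earlier. By that annotation, the core of *Naglu* lay inside the gene, and the core of *Sgsh* reached into it. That of *Lgmn* was in a window of another RefSeq start, which lay wholly inside the gene. The windows of *Arsb*, the gene that rose, of *Arsa*, a sulfatase with the core that did not pass the test, and of *Sumf1*, whose product activates both and which has the longer motif, are shown 5′ to 3′ on the strand of the gene, with CACGTG in capitals and without the bases that belong to the gene in the annotation of the values.
Arsb, chr13:93771429-93771629, plus strand: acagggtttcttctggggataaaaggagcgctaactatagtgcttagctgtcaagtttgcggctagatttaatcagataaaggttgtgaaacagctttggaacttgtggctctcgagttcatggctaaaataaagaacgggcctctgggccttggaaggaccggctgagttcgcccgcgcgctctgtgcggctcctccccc
Arsa, chr15:89477426-89477674, minus strand: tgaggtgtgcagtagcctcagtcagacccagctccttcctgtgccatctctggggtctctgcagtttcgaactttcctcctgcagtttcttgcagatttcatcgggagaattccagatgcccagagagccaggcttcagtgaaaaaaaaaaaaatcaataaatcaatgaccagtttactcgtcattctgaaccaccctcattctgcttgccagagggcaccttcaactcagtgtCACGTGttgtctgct
Sumf1, chr6:108185584-108185833, minus strand: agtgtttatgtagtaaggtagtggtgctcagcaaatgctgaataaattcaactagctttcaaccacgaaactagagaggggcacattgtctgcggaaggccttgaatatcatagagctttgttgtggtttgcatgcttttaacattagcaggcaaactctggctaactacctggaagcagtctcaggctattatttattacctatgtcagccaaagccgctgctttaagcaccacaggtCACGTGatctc
Counted back from the RefSeq start, the first base of CACGTG was at −16 for *Arsa* and at −11 for *Sumf1*. Of the 8 genes with the core, *Gla* was too low to be tested and the others did not pass the test.

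The list holds 4 enzymes that take glycosaminoglycans apart beside the sulfatases. All 4 were tested, 0 rose and 0 fell (6.02% of all genes tested passed in either direction), and all 4 log2 fold changes were below 0, between −0.18 and −0.03, with a median of −0.05. The median was −0.19 when replicate 2 labelled *Cnr1*-/- was left out, with all 4 again below 0, 0 of them passing the test and *Gusb* lower without overlap. *Gusb*, the β-glucuronidase, had the highest mean of them, with 88.6, 94.8 and 91.5 CPM in the libraries labelled *Cnr1*+/+ and 84.1, 106 and 78.6 CPM in those labelled *Cnr1*-/-. These values overlapped, at a log2 fold change of −0.04 (95% interval −0.33 to 0.24) that was 0.05 without the library labelled *Cnr1*-/- replicate 3. *Idua*, the iduronidase that acts on the same dermatan sulfate chains, had a log2 fold change of −0.03 (95% interval −0.49 to 0.43). *Naglu* and *Hgsnat*, a glucosaminidase and an acetyltransferase of heparan sulfate, had −0.06 and −0.18. The upper ends of these 4 intervals lay between 0.24 and 0.43.

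Among the 10 glycosidases of glycoproteins, glycolipids and glycogen, 8 were tested, 0 rose and 0 fell, where 6.02% of all genes tested passed, and the median log2 fold change was 0.09 (0.02 without replicate 2 labelled *Cnr1*-/-). *Neu1*, the sialidase of the lysosome, was the one whose groups did not overlap. It stood at 33.1, 37.4 and 36.3 CPM in the libraries labelled *Cnr1*+/+ and 37.8, 44.4 and 40.5 CPM in those labelled *Cnr1*-/-, but the groups were separated by less than 1 CPM at their nearest and the log2 fold change of 0.20 did not pass the test (95% interval −0.13 to 0.53, limma adjusted p = 0.900). *Hexa*, a subunit of β-hexosaminidase and the member with the highest mean here, had 217, 222 and 263 CPM against 233, 266 and 263 CPM, a log2 fold change of 0.12 (95% interval −0.13 to 0.37). Its 2 groups overlapped.

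*Galc*, the galactosylceramidase that degrades myelin lipids, had the largest log2 fold change of these glycosidases, 0.42, with an interval of −0.10 to 0.94 (limma adjusted p = 0.857). Its level was 12.5, 10.1 and 10.1 CPM against 17.9, 11.9 and 14.3 CPM, and the groups overlapped. Without the mean-variance trend its nominal p was 0.0482 (limma). *Fuca1*, *Man2b1*, *Gaa*, *Glb1* and *Aga*, which remove fucose, mannose, glucose, galactose and the link of sugars to asparagine, had log2 fold changes of 0.15, 0.05, 0.02, 0.01 and −0.08. The 2 glycosidases below the minimum were *Gla*, the α-galactosidase A, at 0.908 to 2.94 CPM, and *Manba*, a β-mannosidase, at 3.05 to 8.98 CPM, and both overlapped.

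*Plbd2* was the second gene that passed the nominal threshold. It belongs to the 8 lipid hydrolases and sphingolipid activators, which were all tested, 1 of them higher and 0 lower, with a median log2 fold change of 0.15. Without replicate 2 labelled *Cnr1*-/-, *Lipa* was also lower. The gene encodes a phospholipase B-like protein of the lysosome. It stood at 27.9, 21.1 and 24.3 CPM in the libraries labelled *Cnr1*+/+ and 32.6, 30.8 and 36.4 CPM in those labelled *Cnr1*-/-, without overlap. The log2 fold change was 0.45 with a standard error of 0.18 (95% interval 0.08 to 0.82), and the nominal p of 0.0194 became an adjusted p of 0.792 over all genes tested (limma). On leaving out the library labelled *Cnr1*+/+ replicate 2 its nominal p was 0.0898 (limma), without *Cnr1*-/- replicate 3 it was 0.0821, and after rescaling without mitochondrially encoded genes it was 0.0570. The log2 fold change was then 0.35, 0.38 and 0.35, still higher for the label *Cnr1*-/-.

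*Psap* had the highest mean of the lipid group. It encodes prosaposin, the precursor of the saposins that present sphingolipids to their hydrolases. Its level was 1503, 1618 and 1757 CPM in the libraries labelled *Cnr1*+/+ and 1791, 1955 and 1952 CPM in those labelled *Cnr1*-/-. The groups did not overlap, but the log2 fold change of 0.23 did not pass (95% interval −0.03 to 0.48, limma nominal p of 0.0760, adjusted p = 0.839). It passed the nominal threshold when the library labelled *Cnr1*+/+ replicate 3, the highest of its group, was left out (limma nominal p of 0.0204, adjusted p = 0.474). Its log2 fold change shrank to 0.15 with centring, 0.044 with quantile normalisation and 0.13 with rescaling (limma nominal p of 0.117, 0.582 and 0.197).

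*Lipa*, the acid lipase of cholesteryl esters, had the lowest log2 fold change of the 33 tested genes. It stood at 38.8, 48.0 and 49.1 CPM in the libraries labelled *Cnr1*+/+ and 32.6, 48.0 and 28.1 CPM in those labelled *Cnr1*-/-, where replicate 2 lay among the former. The log2 fold change was −0.35 (95% interval −0.73 to 0.03, limma nominal p of 0.0676, adjusted p = 0.838). When replicate 2 labelled *Cnr1*-/- was left out, which stood apart in blood cell markers, it was −0.57 and the nominal p was 0.00478 (limma adjusted p = 0.755). *Smpd1* (acid sphingomyelinase), *Gm2a* (an activator of ganglioside breakdown), *Asah1* (acid ceramidase), *Pla2g15* (a phospholipase) and *Ppt1* (a thioesterase that removes palmitate) had log2 fold changes of 0.16, 0.15, 0.14, 0.10 and −0.02. All 5 overlapped between the labels.

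The remaining 9 genes encode peptidases, phosphatases, nucleases and other lysosomal proteins. Of these, 8 were tested, 0 rose and 0 fell (6.02% of all genes tested passed), and the median log2 fold change was 0.03 (0.0083 without replicate 2 labelled *Cnr1*-/-). All 8 intervals lay within 1.5-fold in either direction, as did 56.4% of those of all genes tested. *Lgmn*, the asparaginyl endopeptidase legumain, had the highest mean, with 687, 804 and 947 CPM in the libraries labelled *Cnr1*+/+ and 878, 879.5 and 788 CPM in those labelled *Cnr1*-/-. These too overlapped, and their log2 fold change of 0.07 (95% interval −0.18 to 0.33) was below 0 with 2 of the other scalings and without the library labelled *Cnr1*+/+ replicate 1.

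*Grn*, which encodes progranulin, a regulator of lysosomal function, had a log2 fold change of 0.12 (95% interval −0.12 to 0.36), and *Tpp1*, a tripeptidyl peptidase, had 0.05. *Scpep1*, a carboxypeptidase, and *Creg1*, a lysosomal glycoprotein, had 0.18 and 0.00. *Dnase2a*, the acid nuclease of engulfed DNA, had −0.08. *Acp2*, an acid phosphatase, stood at 143, 181 and 197 CPM in the libraries labelled *Cnr1*+/+ and 147, 156 and 165 CPM in those labelled *Cnr1*-/-. Its groups overlapped, at a log2 fold change of −0.14 (95% interval −0.41 to 0.12). *Rnaset2b*, an acid ribonuclease, had 0.00, and reads of this gene can be shared with its near-identical copy *Rnaset2a* (log2 fold change 0.06). *Acp5*, the tartrate-resistant phosphatase known from osteoclasts, was listed at 0 in 3 libraries, which allows up to 3 reads or 0.280 to 0.358 CPM there, and at no more than 0.736 CPM in the others.

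**Figure D4:**
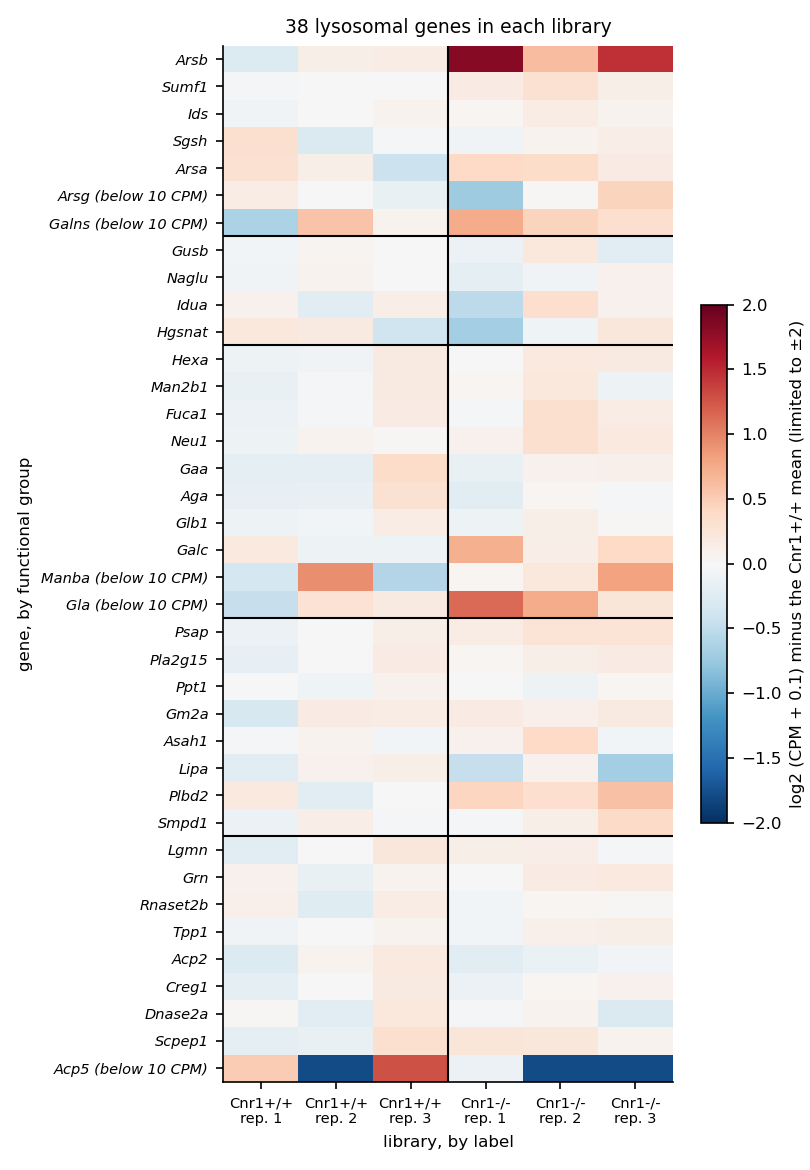
Level of the 38 genes in each of the 6 libraries as the difference of log2 (CPM + 0.1) from the mean of the libraries labelled *Cnr1*+/+ (colour, limited to ±2; red higher, blue lower), with rows by functional group and highest mean first. *Arsb* in the top row is the one tested gene that is deep red, in replicates 1 and 3 labelled *Cnr1*-/-, while most other tested genes are pale, and *Acp5* at the bottom is blue where it is at 0.

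The libraries differed from each other in these genes in part irrespective of the label. The library labelled *Cnr1*+/+ replicate 1 held the lowest value for 17 of the 33 tested genes, and *Cnr1*+/+ replicate 3 the highest for 12, ahead of *Cnr1*-/- replicate 2 with 10, replicate 3 with 7 and replicate 1 with 3. Without *Arsb*, the median log2 ratio of the tested genes to the mean of the libraries labelled *Cnr1*+/+ was −0.09, −0.00 and 0.12 in those libraries and −0.01, 0.12 and 0.10 in the libraries labelled *Cnr1*-/-. Over all genes tested the same median was −0.09, −0.00 and 0.10, and 0.02, 0.17 and 0.08. The 2 series of medians ran close together.

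Centring on the library median, quantile normalisation and rescaling to totals that leave out genes of the mitochondrial chromosome moved the median of all genes from 0.08 to 0.01, −0.00 and −0.01, and that of the 33 genes from 0.07 to −0.0025, 0.0070 and −0.027. The log2 fold change of *Arsb* was 1.22, 1.20 and 1.20 under them. Under these scalings *Lipa* and *Acp2* were lower with a nominal p under 0.05 (limma), as they were without the library labelled *Cnr1*+/+ replicate 1, and the share of all genes tested that were lower was 2.67%, 2.96% and 3.15% under the scalings and 1.53% without that library. Among all genes called, the share that was higher fell from 84.5% to 52.5%, 45.3% and 40.3% with the scalings.

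Lysosomal genes outside the list were tested in the same fit, in which 6.02% of all genes passed. Of 20 other hydrolases and their partners, 19 were listed and 13 tested, 0 rose and 0 fell, and the median log2 fold change was 0.06 (0.02 over the 12 tested without replicate 2 labelled *Cnr1*-/-). Of 16 genes of lysosome biogenesis and enzyme sorting, 13 were tested, 1 rose and 0 fell, and the median was −0.04. When replicate 2 labelled *Cnr1*-/- was left out, 0 rose and 1 fell, *Gga2*, an adaptor of enzyme sorting (log2 fold change −0.66, limma nominal p of 0.0436, adjusted p = 0.999), and the median was −0.11. With all libraries, the gene that rose was *Sort1*, which encodes the sorting receptor sortilin, with 74.2, 83.2 and 97.0 CPM in the libraries labelled *Cnr1*+/+ and 99.2, 120.3 and 98.6 CPM in those labelled *Cnr1*-/- (log2 fold change 0.32, limma nominal p of 0.0279, adjusted p = 0.793). Its highest value was that of replicate 2 labelled *Cnr1*-/-, and *Sort1* no longer passed without that library (log2 fold change 0.23, limma nominal p of 0.158). *Tfeb* and the related factor *Tfe3* had log2 fold changes of −0.08 and −0.13, neither of which passed the test.

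Within 1 Mb of the start of *Arsb*, 15 other genes were listed and 6 were tested, 0 of them with a nominal p under 0.05 (limma), a count too small to set against the 6.02% of all genes that passed. These were *Mtx3*, *Tent2*, *Jmy*, *Lhfpl2*, *Scamp1* and *Ap3b1*, with log2 fold changes from −0.10 to 0.44 and a lowest nominal p of 0.149 for *Tent2* (limma). The values of *Lhfpl2* did not overlap between the labels (log2 fold change 0.11, 95% interval −0.17 to 0.39). The interval of *Tent2*, a gene with a mean of 10.2 CPM, reached 1.05 and so overlapped that of *Arsb*, whereas those of the other 5 ended below it. The annotation also places *Gm47210*, *Mir5624*, *Gm25534* and *Gm26527* within the span of *Arsb*, and the table used here lists none of them. Whether strand was used in counting is not given in the sources used here, so reads of such overlapping genes cannot be told apart from those of *Arsb*. The same holds for *Sumf1*, which contains the pseudogene *Rpl36-ps12* on its own strand (32.8 CPM, log2 fold change 0.16), for *Arsg* with *Slc16a6* on the opposite strand (274 CPM, log2 fold change 0.03), for *Ppt1* with *Cap1* (76.2 CPM, log2 fold change 0.13) and *Idua* with *Dgkq* (7.95 CPM), both on the opposite strand, and for *Arsa*, *Galns* and *Hexa*, whose listed overlapping genes *C230037L18Rik*, *Gm20388* and *Tmem202* had 2.27, 4.49 and 0.789 CPM. It also holds for *Glb1* with *Tmppe* on its own strand (1.01 CPM), and for *Acp2*, *Dnase2a*, *Grn*, *Galc* and *Acp5*, whose listed partners *Ddb2*, *Mast1*, *Fam171a2*, *Gm47439* and *6530413G14Rik* on the opposite strand had 4.81, 1.62, 1.09, 0.391 and 0.190 CPM.

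**Figure D5:**
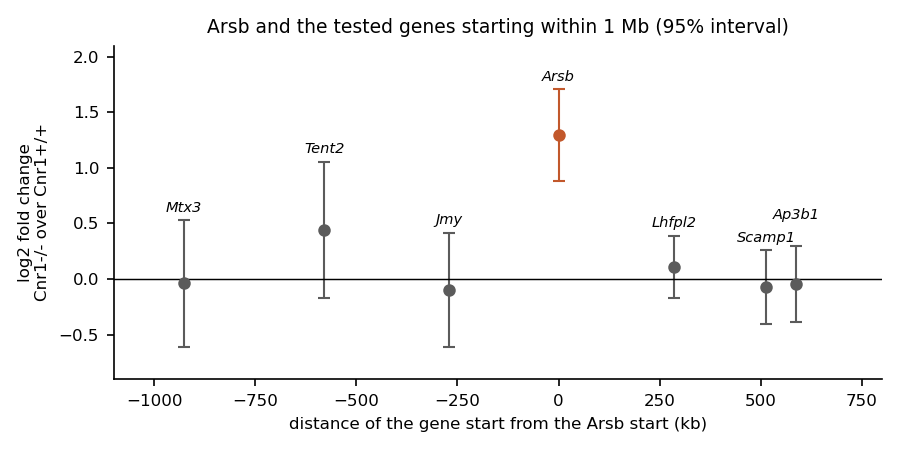
Log2 fold change of *Arsb* and of the 6 tested genes that start within 1 Mb of it (y axis, points with 95% intervals) against the distance of the gene start from the *Arsb* start in kb (x axis). *Arsb* lies at 1.30, while its neighbours lie between −0.10 and 0.44.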

How the data were processed

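RNA of CD11b-enriched cells from 3 mice labelled *Cnr1*-/- and 3 labelled *Cnr1*+/+ was analysed, 1 library per mouse. The authors aligned trimmed 3′ reads to mm10 with STAR, assigned reads to genes by expectation-maximisation in Partek, and deposited CPM values with TMM scaling. Listed genes hold 50.1% to 59.1% of each library's scaled total, and 1 read was worth 0.0933 to 0.130 CPM. Since 84.8% to 86.8% of the values were whole multiples of 1 read (tolerance 0.05), count models were not used. Values count 3′ ends and are not divided by length, so levels of different genes were not ranked by amount of RNA.

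The genotype term was fitted by limma 3.58.1 (R 4.3.3) to log2 (CPM + 0.1) of genes whose mean was 10 CPM or more, using lmFit and eBayes with a trend, with Benjamini-Hochberg adjustment over all of them. Thresholds were a nominal p of 0.05, or an adjusted p of 0.1 with a fold of 1.5. The fold understates changes of low genes. Single genes were also compared by a two-sided exact permutation test. Steps were tested on simulated data. The genes, lists and tests were chosen with earlier results of these data known. The genes of the list given with full values are the sulfatases, genes past the nominal threshold or without overlap, the highest of each group, and genes whose call changed under another setting. Lysosomal genes outside the list are given with full values only where they passed the nominal threshold with all libraries.

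Alternative settings used pseudocounts of 0.01 and 1, a minimum of 20 CPM or none, 3 other scalings, eBayes without the trend, vooma weights, a replicate block, and fits that left out a library. Gene spans are those of the values' annotation and matched GENCODE vM21 for all 38 genes, of which 19 overlap another annotated gene, 6 of them on the same strand. Promoter sequences are from RefSeq. Figures were drawn with matplotlib 3.10.9.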

Additional observations from a re-analysis of the deposited data

How the results depend on the processing

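*Arsb* kept its direction and a fold above 1.5 under all 16 alternatives, with log2 fold changes of 1.04 to 1.63. Its limma adjusted p ranged from 4.06e-09 to 0.825 and was above 0.1 with centring (log2 fold change 1.22, adjusted p 0.140), quantile normalisation (1.20, 0.214), rescaling without mitochondrially encoded genes (1.20, 0.169) and eBayes without a trend (1.30, 0.825). With each library left out, the log2 fold change was 1.04 to 1.63 and the adjusted p 4.06e-09 to 0.0612. The cause of these differences was not tested.

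The number of genes of the list that were higher was 2, 3 without the trend (*Galc* gained) and 1 after rescaling, and ranged from 1 to 3 with each library left out. *Arsb* is in each of these counts. Of all genes tested, 6.02% passed in either direction, 5.87% without the trend, 5.29% after rescaling and 3.81% to 9.07% with a library left out. *Plbd2* was lost without *Cnr1*+/+ replicate 2 and without *Cnr1*-/- replicate 3, and *Psap* was gained without *Cnr1*+/+ replicate 3. The number lower was 0, and 2 (*Acp2* and *Lipa*) with centring, with quantile normalisation and with rescaling, and ranged from 0 to 2 with each library left out, with both genes lower without *Cnr1*+/+ replicate 1 and *Lipa* without *Cnr1*-/- replicate 2. Lower genes made up 0.931% of all genes tested in the main fit. They made up 2.67%, 2.96% and 3.15% with these scalings and 0.51% to 1.53% with a library left out. The median log2 fold change of 0.07 was −0.027 after rescaling, −0.0025 with centring and 0.0070 with quantile normalisation. With a library left out it ranged from 0.023 to 0.12, beside 0.031 to 0.13 over all genes tested. The sign of small values turned for *Sgsh* (−0.032 with centring, −0.035 with quantile normalisation, −0.055 with rescaling, and −0.10 to 0.20 with a library left out), *Ids* (−0.013 with rescaling), *Lgmn* (−0.0025 with centring, −0.027 with rescaling, and −0.042 to 0.19 with a library left out) and *Gusb* (−0.17 to 0.047 with a library left out).

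Over all genes, 401 had a nominal p under 0.05, with 993 when no filter was used, 263 with a minimum of 20 CPM (fewer genes tested) and 251 to 600 with a library left out, the lowest without *Cnr1*-/- replicate 2. Both thresholds were passed by 6 genes, by 14 without a filter, by 0 with centring, quantile normalisation, rescaling or no trend (limma; 375, 360, 352 and 391 genes at a nominal p under 0.05), and by 1 (without *Cnr1*+/+ replicate 2) to 24 (without *Cnr1*-/- replicate 3) with a library left out.

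Same-numbered libraries did not deviate together (correlations −0.06, −0.03 and −0.03). With 3 libraries per label, this cannot tell whether the replicate number pairs mice. With the replicate number as a block, the log2 fold change of *Arsb* was 1.30 (limma adjusted p 0.000546). In that fit 2 genes of the list, *Arsb* among them, were higher, and 6.32% of all genes tested passed in either direction. Low reads limit *Arsg*, *Galns*, *Gla*, *Manba* and *Acp5*, and besides *Arsb* the intervals reach beyond 1.5-fold higher for *Arsa*, *Galc* and *Plbd2* and beyond 1.5-fold lower for *Hgsnat* and *Lipa*.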
